A study of Papio hamadryas with 11 samples.

Results

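The genes described here are 36 transporters of bile acids, lipids, copper and organic ions, namely those known from hepatocytes and relatives from the same families. The list is one of symbols, and its rule uses detection but no difference between groups. The deposited array table has a listed probe for 32 of the 36. A gene counted as measured when 1 of its probes had a detection p-value under 0.05 on at least 4 of the 11 arrays, and the probe with the highest mean then stood for it. By this rule 18 of the 36 were measured, among 10619 features tested. SLC22A3, SLC22A18, ABCC1 and ABCC6 were not analysed here.

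Total RNA came from fetal livers of 11 baboons (Papio hamadryas) at 165 days, which the labels also give as 0.9 of gestation. Each liver was hybridised to 1 human Illumina expression array. The control group (CON1 to CON6) holds 3 female and 3 male fetuses of control mothers, and the maternal obese group (MO1 to MO5) holds 3 female and 2 male fetuses of obese mothers. The labels name no genotype or drug. The first part of the array name gives the slide: CON1 to CON4 were on slide 1, and CON5, CON6 and MO1 to MO5 were on slide 2. Any comparison of the slides therefore rests on CON5 and CON6, both male, against 4 controls of which 3 are female. The series set maternal obesity against control in order to describe the fetal hepatic response.

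Hepatocytes are polarised cells. Carriers on their sinusoidal face take bile acids and other organic ions out of portal blood, and pumps on their canalicular face move bile acids, phospholipid, cholesterol, copper and conjugates into bile. A further set of pumps on the basolateral face returns solutes to blood. In fetal life much of this load is handled by the placenta, and several of the transporters reach their adult level only after birth.

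Intensities were background-corrected and quantile-normalized to log2 values, and all levels below are on that scale unless an intensity is named. Between 10131 and 13065 of the 48803 probes were detected on an array. Median raw intensity was 62.0 to 65.6 on slide 1 and 69.7 to 80.3 on slide 2. The correlation between arrays had a median of 0.968 within a slide and of 0.953 between slides. The 18 measured transporters had a median range over the 11 arrays of 0.89, against 0.88 over all features. Most hepatocyte markers were clear in these samples, with 13 of 15 measured and 12 detected on every array, while TAT, an enzyme of tyrosine breakdown, was detected on none. Of 10 cholangiocyte markers only EPCAM was measured, and KRT7, KRT19, CFTR, SPP1, CLDN4 and MUC1 were detected on no array. The tissue is bulk, so fewer cells of a type and less RNA per cell cannot be told apart. Levels of different genes are not ranked, since human probes may bind each baboon transcript to a different degree. Nothing in the labels says whether any of the fetuses shared a mother, and the p-values measure the spread between these samples.

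Detection was read by role. All 4 measured sinusoidal uptake carriers, SLC10A1, SLCO1B1, SLCO2B1 and SLC22A7, were detected on all 11 arrays, out of 6 with a listed probe. SLCO1B3, a close relative of SLCO1B1, and SLC22A9 were detected on no array. Of 10 canalicular genes, 6 were measured: ABCB11, ABCB4, ABCC2, ATP7B and SLC47A1 on all 11 arrays and ABCG8 on 8. The canalicular genes ABCB1, ABCG2, ABCG5 and ATP8B1 were detected on none.

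Among the basolateral pumps, ABCC5 and ABCA1 were detected on all 11 arrays, out of 6 with a listed probe. ABCC4 was detected on 1 array, and ABCC3, SLC51A and SLC51B on 0. SLC51A and SLC51B are the subunits of the basolateral organic solute transporter. The remaining family members were dim. None of them was detected on all 11 arrays, and 6 of 10 with a listed probe passed the minimum. These were SLCO3A1 on 10 arrays, SLC22A23, SLC10A3 and SLC10A7 on 8 each, and SLCO2A1 and SLCO4A1 on 4 each. SLC10A5 lay just outside with 3 arrays, and SLC22A4, SLC22A10 and SLCO4C1 were on none. In all, 12 of the 32 genes with a listed probe were never detected, and a human probe that binds baboon RNA poorly would look the same as an absent transcript.

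**Figure D1:**
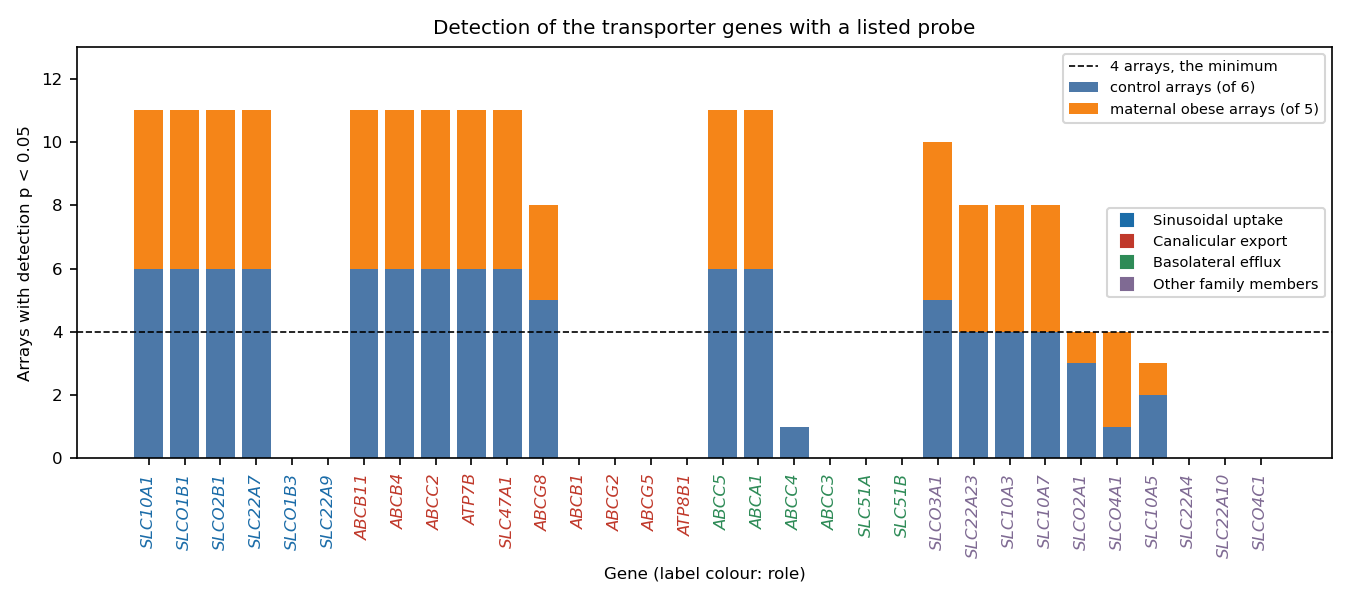
Number of arrays (y axis, of 11) with a detection p-value under 0.05 for each of the 32 transporter genes with a listed probe (x axis), stacked as control and maternal obese arrays, with label colour for role and a dashed line at the minimum of 4. The bars reach 11 for 11 genes and 0 for 12.

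Maternal obese against control livers gave no transporter that passed the test over all features. With limma and Benjamini-Hochberg adjustment, 0 of the 18 measured transporters and 0% of the 10619 features were called, and the smallest adjusted p of any feature was 0.219. At an unadjusted p under 0.05, 1 transporter was higher and 0 were lower, against 13.2% of all features. The differences of the 18 ran from -0.65 for ABCG8 to 0.60 for SLC22A7, with 10 above 0, 8 below and a median of 0.04. The median over all features was 0.05, and 57.8% of them lay above 0. No transporter had maternal obese and control arrays that did not overlap, a pattern that 1.39% of all features showed.

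SLC22A7, a carrier of organic anions on the sinusoidal face, had the largest difference above 0. Its level was 11.82, 11.79, 11.64 and 11.55 in CON1 to CON4, 11.99 and 11.62 in CON5 and CON6, and 12.38, 11.98, 12.34, 12.46 and 12.5 in MO1 to MO5. The lowest maternal obese array, MO2, lay just under the highest control, CON5, and the other 4 lay above every control. Control livers had a mean of 11.74 ± 0.16 (SD, n = 6), against 12.33 ± 0.21 (SD, n = 5) with maternal obesity. The difference was 0.60 with an SE of 0.13 and a 95% interval of 0.32 to 0.87, a 1.51-fold difference. Its unadjusted p in limma was 3.91e-04, rank 14 of 10619, and its adjusted p was 0.274, so it was not called. A raw intensity of 2943 to 4315 in controls stood against 4208 to 5854 in maternal obese livers.

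A further probe of SLC22A7 was detected on all 11 arrays and gave a similar picture. It read 11.03, 11.16, 10.62 and 10.50 in CON1 to CON4, 11.05 and 10.89 in CON5 and CON6, and 11.60, 11.36, 11.51, 11.79 and 11.55 in MO1 to MO5. On this probe the groups did not overlap. Its difference was 0.68 with an SE of 0.14, and its adjusted p in limma was 0.252. The levels on both probes, which share the same RNA and arrays, had a Pearson r of 0.930 over the 11 arrays. The SLC22A7 difference was 0.48 in females (limma unadjusted p = 0.0157, adjusted p = 0.25) and 0.76 in males (unadjusted p = 0.00195, adjusted p = 0.526), and the difference between the sexes did not pass the test (adjusted p = 0.861).

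The other sinusoidal carriers differed less between the groups. SLC10A1, the sodium-dependent carrier of conjugated bile acids, was at 11.30, 11.65, 11.15 and 11.14 in CON1 to CON4, 10.79 and 11.16 in CON5 and CON6, and 11.48, 10.63, 11.35, 11.35 and 11.47 in MO1 to MO5. MO2 held the lowest value of all 11, and the other 4 maternal obese arrays lay within the control range. The difference was 0.05 with a 95% interval of -0.33 to 0.44.

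SLCO1B1, a sodium-independent carrier of bile acids, bilirubin conjugates and many drugs, was at 8.0, 8.03, 8.33 and 7.82 in CON1 to CON4. It was at 6.95 and 7.24 in CON5 and CON6 and at 7.94, 6.75, 7.58, 6.90 and 7.66 in MO1 to MO5. The controls of slide 1 were high and those of slide 2 low, and the maternal obese arrays ran from within the slide 1 range to below both slide 2 controls. The difference of -0.36 (SE 0.28, adjusted p in limma 0.549) had a 95% interval of -0.95 to 0.24. SLCO2B1, a carrier of steroid sulfates and other organic anions, was at 9.76, 9.75, 9.53 and 9.30 in CON1 to CON4, 9.16 and 9.07 in CON5 and CON6, and 9.76, 9.37, 9.38, 9.81 and 9.34 in MO1 to MO5. All 5 maternal obese arrays lay within or just above the range of the slide 1 controls and above both slide 2 controls. The SLCO2B1 difference was 0.10.

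Of the 6 measured canalicular genes, 3 differed above 0 and 3 below, and none was called. ATP7B, the copper pump whose loss causes Wilson disease, was at 9.16, 8.86, 8.70 and 8.47 in CON1 to CON4, 8.99 and 8.57 in CON5 and CON6, and 8.71, 8.95, 9.28, 9.51 and 9.22 in MO1 to MO5. MO3, MO4 and MO5 lay above every control, and MO1 and MO2 lay among the controls. The means were 8.79 ± 0.26 (SD, n = 6) and 9.14 ± 0.31 (SD, n = 5), and the difference was 0.34 with a 95% interval of -0.02 to 0.70 (adjusted p in limma 0.386). In males the ATP7B difference was 0.69 (limma unadjusted p = 0.0118, adjusted p = 0.532) and in females 0.07. Condition is mixed with slide in females, and in part in males, where CON4 was on slide 1. The difference between the sexes did not pass the test (adjusted p = 0.711).

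ABCB11, the bile salt export pump, was at 7.52, 8.44, 8.18 and 7.63 in CON1 to CON4, 7.82 and 8.61 in CON5 and CON6, and 7.77, 7.50, 7.65, 7.43 and 8.19 in MO1 to MO5. The highest values were in CON6 and CON2, the lowest in MO4, and the groups overlapped widely. The difference was -0.33 with an SE of 0.21, a 95% interval of -0.79 to 0.13 and an adjusted p in limma of 0.484.

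ABCG8 forms with ABCG5 the pump that moves cholesterol and plant sterols into bile. It was at 5.32, 6.57, 7.02 and 6.18 in CON1 to CON4, 7.29 and 7.76 in CON5 and CON6, and 6.41, 6.28, 5.21, 7.05 and 5.24 in MO1 to MO5. CON1, MO3 and MO5 were not detected, and the fits take their values as measured although they lie at or below background. Both slide 2 controls were the highest of the 11. The means were 6.69 ± 0.87 (SD, n = 6) and 6.04 ± 0.80 (SD, n = 5), with a difference of -0.65 and a 95% interval of -1.58 to 0.28 (adjusted p in limma 0.491).

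ABCB4 places phosphatidylcholine in the canalicular membrane for release into bile. It was at 8.53, 8.41, 8.71 and 8.49 in CON1 to CON4, 8.30 and 8.66 in CON5 and CON6, and 8.60, 8.16, 8.34, 8.75 and 8.87 in MO1 to MO5, which overlap. Its difference was 0.03 with a 95% interval of -0.28 to 0.33. ABCC2, which exports conjugated bilirubin and glutathione conjugates, was at 7.84, 7.82, 7.16 and 8.23 in CON1 to CON4, 8.15 and 7.99 in CON5 and CON6, and 8.02, 7.80, 8.22, 7.68 and 8.03 in MO1 to MO5. CON3 was the lowest, and the rest of the arrays lay close together. The ABCC2 difference was 0.09.

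The basolateral pumps and the dimmer family members differed little. ABCC5, an exporter of cyclic nucleotides, differed by -0.10. ABCA1, which passes cholesterol and phospholipid to apolipoprotein A-I, differed by 0.07. SLCO3A1, an organic anion carrier of many tissues, was at 5.53, 5.24, 5.65 and 6.11 in CON1 to CON4, 6.01 and 5.57 in CON5 and CON6, and 6.08, 6.06, 5.90, 5.60 and 5.81 in MO1 to MO5. CON2 was not detected, and the maternal obese arrays lay inside the control range. The SLCO3A1 difference was 0.20 (adjusted p in limma 0.565). SLC22A23, SLC10A3, SLC10A7, SLCO2A1 and SLCO4A1 differed by -0.18 to 0.12.

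**Figure D2:**
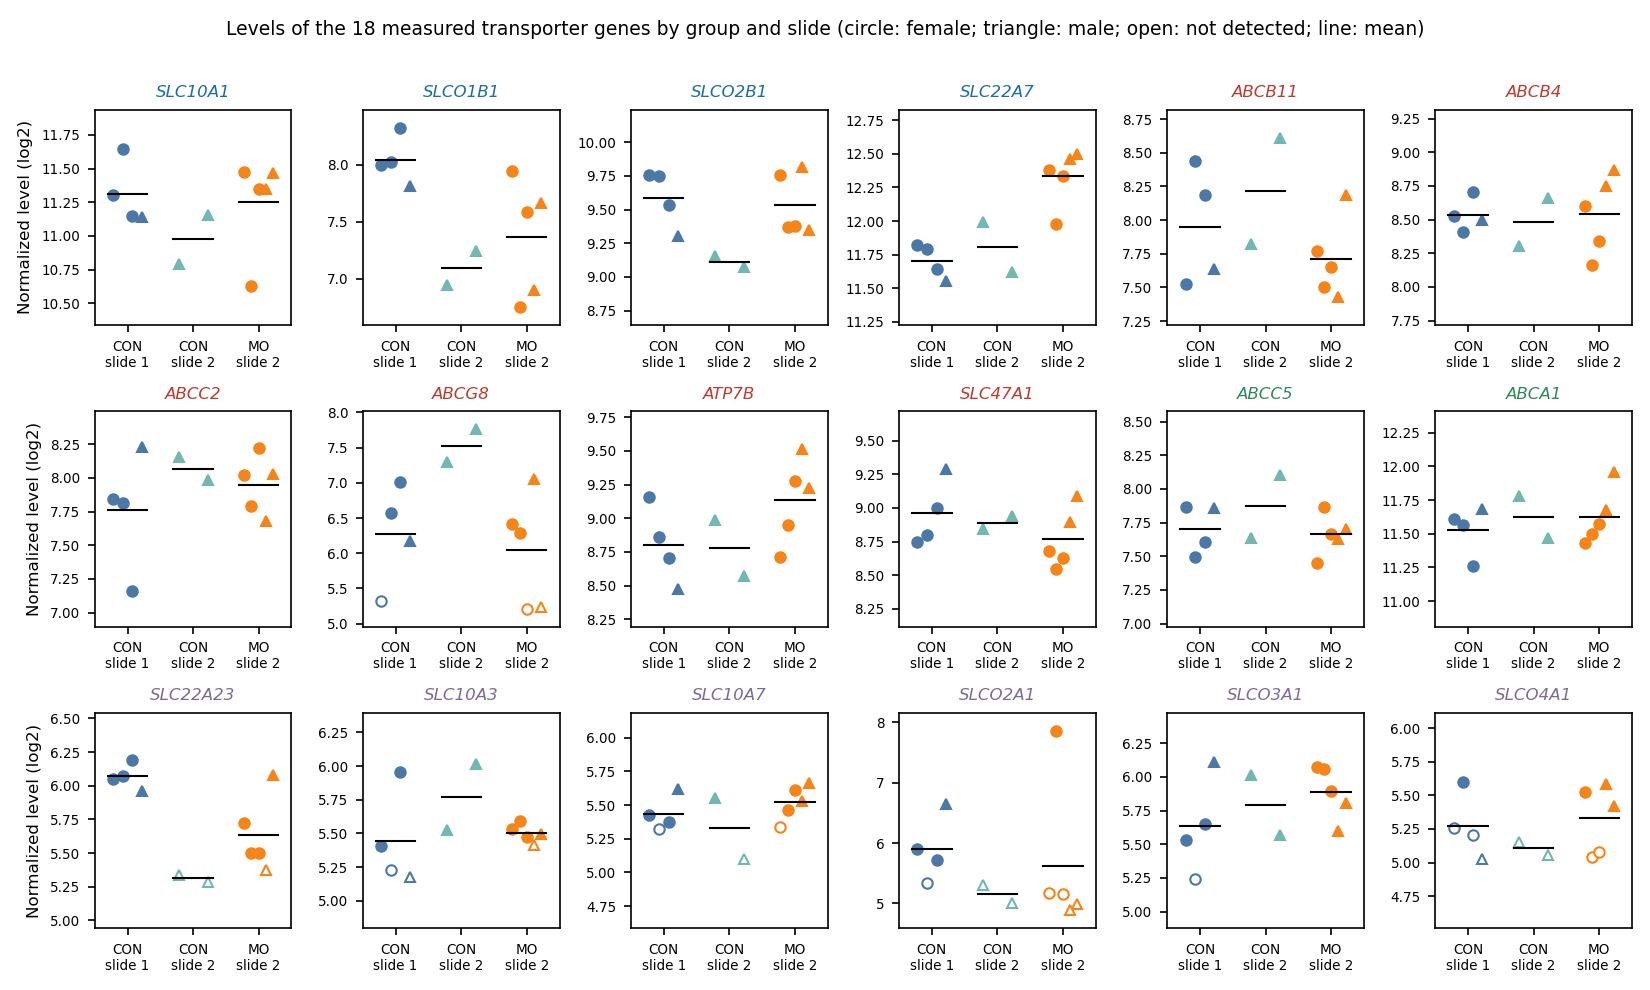
Normalized log2 level (y axis) of each of the 18 measured transporters on the 11 arrays, split into controls of slide 1, controls of slide 2 and maternal obese arrays of slide 2 (x axis), with circles for females, triangles for males, open symbols where the probe was not detected and a line at each mean. SLC22A7 lies higher in 4 of 5 maternal obese arrays than in every control. The controls of the slides do not overlap for 5 of 18, against 36.4% of all features. These are SLCO1B1, SLCO2B1 and SLC22A23 (lower on slide 2), ABCG8 (higher) and SLCO2A1. The nearest SLCO2A1 arrays, CON2 at 5.33 and CON5 at 5.30, were not detected, so no direction is read for it.

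More features were called between the slides than between the conditions. With condition as a covariate, 326 features were called higher and 642 lower on slide 2 than on slide 1, which is 9.12% of all features. Of the 18 transporters, 0 were called higher and 1 was called lower. At an unadjusted p under 0.05 there were 4 transporters, against 27.4% of all features. The 18 had 8 differences above 0, 10 below and a median of -0.04, where all features had a median of 0.10. Over all 11 arrays, 0 of the 18 separated slide 1 from slide 2 without overlap, against 13.5% of all features.

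SLC22A23, a family member whose substrate is not known, was lower in the controls of slide 2 than in those of slide 1. It was at 6.05, 6.07, 6.19 and 5.96 in CON1 to CON4, 5.33 and 5.29 in CON5 and CON6, and 5.73, 5.50, 5.50, 5.38 and 6.08 in MO1 to MO5. It was detected on all 4 slide 1 arrays, on neither CON5 nor CON6, and on 4 of 5 maternal obese arrays. The slide difference was -0.76 with an SE of 0.18 and an adjusted p in limma of 0.0267. Against the lowest detected signal on CON5 and CON6, the slide 1 controls were at least 1.55-fold higher. The call was lost without CON3 (adjusted p = 0.0649), without CON5 (adjusted p = 0.110), without CON6 (adjusted p = 0.198) and with sex as a further covariate (adjusted p = 0.0982), while the difference stayed between -0.79 and -0.72 in these fits.

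The next transporters by p across the slides did not pass the adjustment. SLCO1B1, whose values are given above, had a control mean of 8.04 ± 0.21 (SD, n = 4) on slide 1 and of 7.10 ± 0.21 (SD, n = 2) on slide 2. Its slide difference was -0.95 with an SE of 0.30 and an adjusted p in limma of 0.0689, and the adjusted p was 0.0445 without MO2. SLCO2B1 differed by -0.47 (SE 0.19, adjusted p in limma 0.129), and by -0.19 on its other probe. ABCG8 differed by 1.25 (SE 0.53, adjusted p in limma 0.154). SLC10A1 differed by -0.34, so that 3 of 4 sinusoidal carriers lay lower on slide 2. The summed level of the hepatocyte markers was also lower in CON5 and CON6 than on slide 1, at 16.92 to 17.13 on slide 1, 16.70 to 16.74 in CON5 and CON6 and 16.73 to 16.93 in maternal obese arrays. Its part in these differences was not tested. Slide and sex are mixed in these 6 controls.

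Within slide 2 the maternal obese arrays can be set against CON5 and CON6 alone, which gives the same differences as a fit with slide as a covariate. CON5 and CON6 are both male and MO1 to MO3 are female, so condition is mixed with sex here. CON5 and CON6 also set the slide differences given above, so the differences below are not independent of those. In that fit 0.00942% of all features and 0 transporters were called. At an unadjusted p under 0.05, 2 transporters were higher and 1 was lower, against 7.62% of all features. The 18 had 12 differences above 0, 6 below and a median of 0.15, against a median of 0.00 over all features. The 12 include SLC22A23, SLCO2A1 and SLCO4A1, which were detected on neither CON5 nor CON6. Their differences here thus rest in part on undetected values. All 4 sinusoidal carriers lay above 0, with SLC22A7 at 0.53 (unadjusted p in limma 0.00901), SLCO2B1 at 0.42 (unadjusted p in limma 0.0392), SLC10A1 at 0.28 and SLCO1B1 at 0.27. The adjusted p was 0.599 for SLC22A7 and 0.646 for SLCO2B1. The other SLCO2B1 probe, detected on all 11 arrays, gave 0.08 in this fit (unadjusted p in limma 0.715), and the other SLC22A7 probe gave 0.59.

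Of the canalicular genes, 2 lay above 0 and 4 below in the same fit. ABCG8 differed by -1.49 with an SE of 0.51 (unadjusted p in limma 0.0135, adjusted p 0.599), against -0.65 over all 11 arrays, and ABCB11 by -0.51. ATP7B differed by 0.36. On slide 2 the arrays of both groups did not overlap for 3 of 18 transporters, against 13.8% of all features. These were SLCO2B1, higher in maternal obese livers, ABCG8, lower, and SLC22A23. The SLCO2B1 separation held on the chosen probe and not on the other, which read 8.42 and 8.60 in CON5 and CON6 and 8.71, 8.55, 8.70, 8.82 and 8.19 in MO1 to MO5. SLC22A23 was not detected on CON5, CON6 or MO4, at 5.33, 5.29 and 5.38, so its separation is given no fold or direction. The differences of SLCO1B1, ABCC2 and SLC22A23 changed sign between the fit without slide and the fit with it. SLCO2A1 was detected on slide 2 in MO2 alone, so no direction is read for it there.

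**Figure D3:**
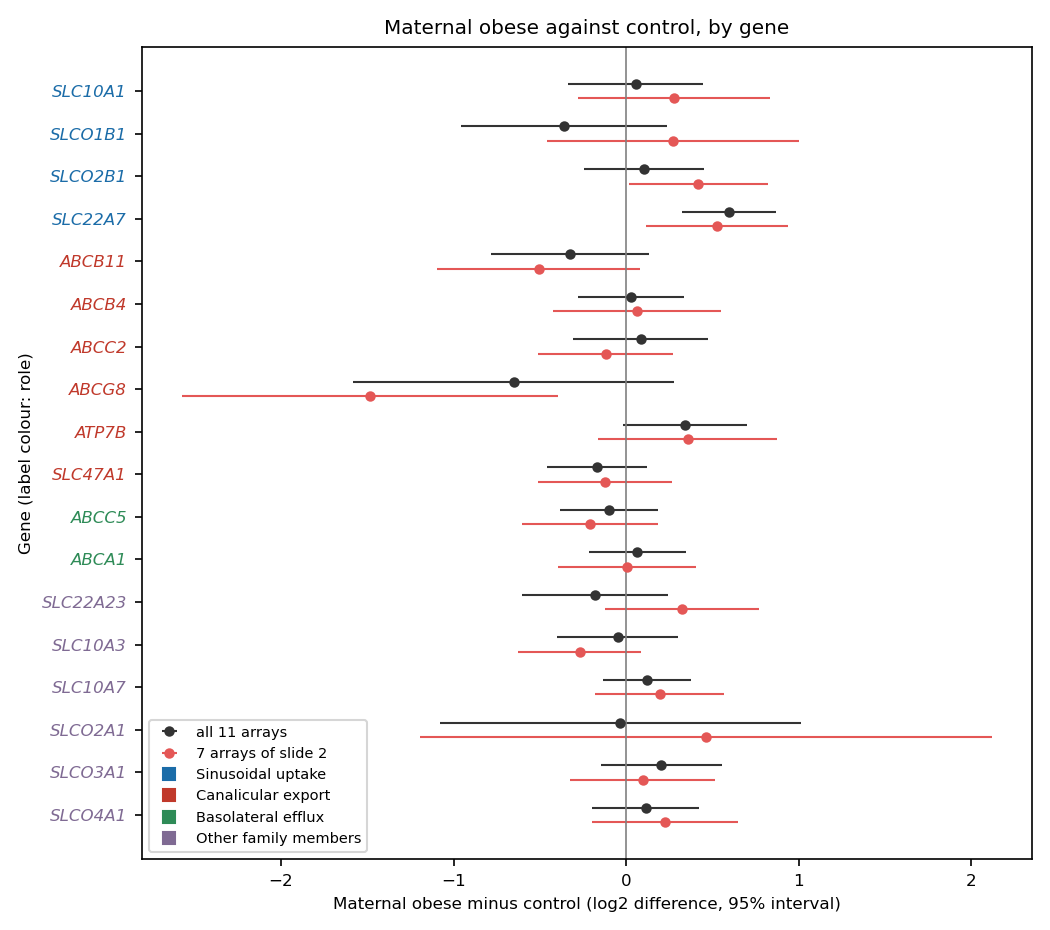
Difference of maternal obese minus control on the log2 scale (x axis, points with 95% intervals) for each of the 18 measured transporters (y axis, label colour for role), over all 11 arrays and over the 7 arrays of slide 2. The interval over all 11 arrays leaves out 0 for SLC22A7 alone, and the slide 2 differences run from -1.49 for ABCG8 to 0.53 for SLC22A7.

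Sex was compared with condition as a covariate. With limma, 5 features were called, which is 0.0471% of all features, and 0 were transporters. All 6 measured canalicular genes lay lower in females, by -0.51 to -0.05, where 42.1% of all features lay higher in females. SLC47A1, which exports organic cations into bile in exchange for protons, had the smallest p. It was at 8.75, 8.80, 9.0, 8.68, 8.55 and 8.63 in the females CON1, CON2, CON3, MO1, MO2 and MO3, and at 9.29, 8.84, 8.94, 8.90 and 9.09 in the males CON4, CON5, CON6, MO4 and MO5. Females and males overlapped through CON3. The means were 8.73 ± 0.16 (SD, n = 6) and 9.01 ± 0.18 (SD, n = 5), and the difference of -0.26 had an SE of 0.12 and an adjusted p in limma of 0.444.

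ABCA1 was at 11.61, 11.56, 11.26, 11.43, 11.50 and 11.57 in the same order of females and at 11.69, 11.78, 11.46, 11.68 and 11.96 in the males. The male CON6 lay among the females, and the other 4 males lay above every female. Its difference was -0.23 with an SE of 0.12 and an adjusted p in limma of 0.494. SLCO1B1 was higher in females by 0.50 (adjusted p in limma 0.496), and 3 of the 4 slide 1 arrays are female.

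The interaction of sex and maternal obesity called 0 transporters and 0% of all features. At an unadjusted p under 0.05 there were 2 of 18 transporters, against 7.35% of all features. The SLCO3A1 difference was 0.54 in females and -0.19 in males, with a limma interaction of 0.73 (SE 0.27, unadjusted p = 0.0204, adjusted p = 0.643). For SLCO2B1 the difference was -0.18 in females and 0.40 in males, with a limma interaction of -0.58 (SE 0.26, unadjusted p = 0.0493, adjusted p = 0.680). On the other probes the interaction was 0.40 (unadjusted p in limma 0.298) for SLCO3A1 and -0.28 (unadjusted p in limma 0.316) for SLCO2B1. All 4 sinusoidal carriers had an interaction below 0, where 50.6% of all features lay above 0. The control females CON1 to CON3 were on slide 1 and every maternal obese female was on slide 2. The female difference is thus also a slide difference. The male controls CON5 and CON6 shared slide 2 with the maternal obese males, but CON4 was on slide 1, so the male difference is mixed with slide in part. The interaction is therefore mixed with slide.

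Further probes of SLCO1B1, ATP7B and ABCC5 were listed but detected on no array. The last listed probe of SLC22A7 and a further probe of SLC10A7 were each detected on 1 array, a control. Of the 3 transporters with a further probe detected on at least 4 arrays, SLC22A7 had the closest agreement between those probes. The Pearson r between probes over the 11 arrays was 0.652 for SLCO2B1 and 0.509 for SLCO3A1. The difference of maternal obese minus control was -0.05 on the other SLCO2B1 probe. The other SLCO3A1 probe read -0.18, but it was detected on 4 of 11 arrays and on 1 of 5 maternal obese arrays, so no direction is read from it.

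**Figure D4:**
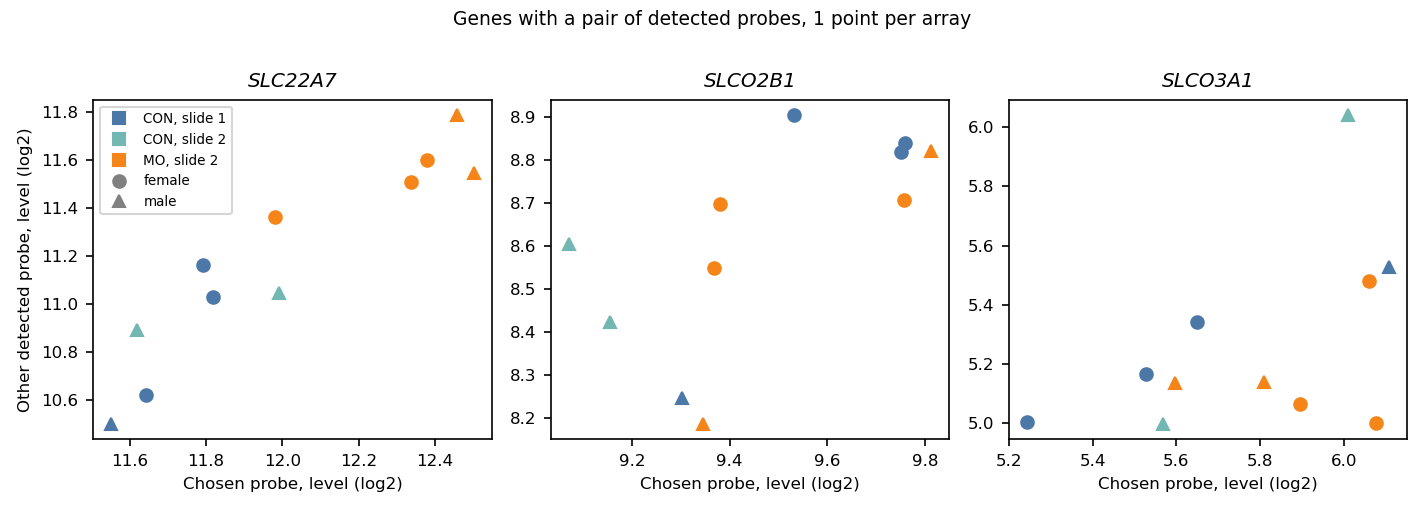
Normalized log2 level on the chosen probe (x axis) and on the other detected probe (y axis) for SLC22A7, SLCO2B1 and SLCO3A1, 1 point per array, coloured by group and slide with circles for females and triangles for males. The points lie nearest to a line for SLC22A7, where Pearson's r was 0.930.

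Some of the transporters act as partners, and 6 such pairs were planned. Only 2 had both genes measured, since ABCG5, ATP8B1, SLC51A, SLC51B and SLCO1B3 were not detected. ABCB11 and ABCB4, which deliver bile salt and phospholipid to the same canaliculus, had a Pearson r of 0.33 (permutation p = 0.322, adjusted p = 0.371) and a Spearman rho of 0.22 (permutation p = 0.519, adjusted p = 0.519) over the 11 arrays. Their r was 0.50 in the 9 arrays nearest the median ABCB11 level and 0.45 within slide 2 (exact permutation p = 0.330). SLC10A1 and ABCB11, which take in and export bile acids, had an r of 0.31 (permutation p = 0.371, adjusted p = 0.371) and a rho of 0.32 (permutation p = 0.342, adjusted p = 0.519). Their r was 0.11 in the 9 arrays nearest the median SLC10A1 level and 0.18 within slide 2 (exact permutation p = 0.776). No pair passed the test.

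Genes that work beside the transporters were also read, and 0 of them were called between maternal obese and control livers in the 5 lists examined. Of 10 measured genes of bile acid synthesis and conjugation, 6 lay above 0 and 4 below, with a median of 0.03. CYP8B1, the enzyme that commits bile acids to cholic acid, differed by -0.52 (unadjusted p in limma 0.0245, adjusted p 0.360) and SLC27A2 by -0.55 (adjusted p in limma 0.374). AMACR, a racemase of the bile acid side chain, differed by -0.29. Among 9 measured nuclear receptors and regulators of transporters, 7 lay above 0 and 2 below, with a median of 0.18. They included ONECUT1 at 0.59, NR5A2 at 0.30 and NFE2L2 at -0.28. With slide as a covariate the median was -0.17 for the bile acid synthesis list and 0.04 for the regulators.

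Of 12 measured genes of the canalicular scaffold and of membrane trafficking, 3 lay above 0 and 9 below, with a median of -0.11. Both cross-linkers of the actin cortex named here, RDX at -0.52 (adjusted p in limma 0.345) and EZR at -0.45 (adjusted p in limma 0.359), lay below 0. With slide as a covariate RDX was at -0.15 and EZR at -0.50. NHERF1, a scaffold that binds them, differed by 0.40 over all arrays and by -0.02 with slide as a covariate. Hepatic copper handling had 5 measured genes besides ATP7B, 2 above 0 and 3 below. The copper chaperone COX17 differed by -1.06 between the groups and by -2.25 between the slides, where it was called, and with slide as a covariate its difference between the groups turned to 0.44. SLC31A1, the copper importer, differed by -0.18 and ATOX1, which hands copper to ATP7B, by 0.10. Among 12 other measured genes of the same transporter families, 5 lay above 0 and 7 below, with SLC22A2 at -1.02, ABCB10 at -0.73 and SLCO1A2 at 0.40. With slide as a covariate SLC22A2 was at -0.21, SLCO1A2 at 0.16 and ABCB10 at 0.35. ABCB10 had a mean of 6.39 in slide 1 controls, 4.78 in CON5 and CON6 and 5.13 in maternal obese livers. For SLC22A2 these means were 6.63, 5.41 and 5.20. The lowest detected signal on the slide 2 arrays was 5.33 to 5.53. The slide 2 means of both genes thus lay near or below background, and no direction is read for them there. None of the 12 was called by condition, and by slide 1 was called higher and 2 lower, against 9.12% of all features.

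Markers of the other cells of the fetal liver overlapped between the groups in their summed level. The Kupffer cell list, with 12 of 12 measured, was at 13.46 to 14.32 in controls and 13.34 to 13.85 in maternal obese livers, and all 12 genes lay below 0 with a median of -0.32. The stellate cell and matrix list had 8 of 11 measured and reached 16.23 in MO2, where no other array passed 14.23, and its 8 genes all lay above 0 with a median of 0.67. The erythroid list, with 6 of 12 measured, was at 15.29 to 16.66 in controls and 16.13 to 16.58 in maternal obese livers, and all 6 genes lay above 0 with a median of 0.18. The endothelial list, with 10 of 11 measured, was at 12.01 to 12.79 and 12.30 to 12.94. With slide as a covariate the median turned to -0.07 for the erythroid list and was -0.36 for the Kupffer cell list and 0.52 for the stellate list. Of all features, 57.8% lay above 0 without that covariate. The part of these cells in the transporter differences was not tested.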

How the data were processed

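Per the labels' protocols, liver RNA was isolated with TRI Reagent, cleaned on RNeasy columns and made into cRNA for the arrays. The authors deposited probe intensity and a detection p-value per probe and array, not normalized. A deposited matrix of log2 values differs from the log2 of those intensities by at most 5.00e-09. GenomeStudio and Partek appear, per the submitters' processing notes, with roles and versions not given in the sources used here. No column lacked a sample (0).

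The intensities were normalized with limma 3.58.1 neqc (offset 16) in R 4.3.3. Probes with a detection p under 0.05 on 4 or more arrays (12065) were kept, 1 per symbol with the highest mean, which gave 10619 features, 8357 of them with 1 gene symbol. The older platform annotation gave 1 symbol to 28098 probes, several to 13 and none to 20692. Tests used lmFit and eBayes, Benjamini-Hochberg adjusted at 0.05, and were checked on simulated data. Each simulated set had independent normal values with changes in only 1 of condition, slide or sex, so the check does not cover slide mixed with condition. SD is between arrays, SE is moderated, and 11 arrays limit the precision. A ceiling is the higher of the lowest detected signal and the probe's own value.

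Every member was accounted for. Full values are given for the 6 smallest p by condition, 4 by slide, 2 by sex and 2 by interaction, and for the main bile transporters. Of each other list the 3 measured genes with the smallest p by condition are named. The members, lists and tests were chosen with earlier results of these data known. Alternatives covered normalization, detection filter, probe, slide, sex and each array left out. Sequences were not used here.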

Additional observations from a re-analysis of the deposited data

Results flagged for a closer look

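In 36 groups of 5 or 6 arrays, 2 held a single array set apart from the rest of its group, judged by its gap relative to the group's range. Chance alone marks about 1 group in 20. Both were MO2. SLC10A1 was at 10.63 in MO2 and at 11.35 to 11.48 in the other maternal obese arrays, so that the gap was 0.846 of the range, above the critical value of 0.71. SLCO2A1, a prostaglandin transporter, was at 7.86 in MO2 and at 4.88 to 5.18 in the others, which were not detected, with a gap of 0.901 of the range. The stellate cell and matrix list was also highest in MO2, at 16.23 against at most 14.23 elsewhere, and its part was not tested. Without MO2 the difference of maternal obese minus control was 0.21 for SLC10A1. For SLCO2A1 no maternal obese array was then detected, so none is given.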

How the results depend on the processing

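No paired analysis was possible because replicate numbers follow accession order and pair no arrays. SLC22A7 stayed above 0 under every alternative run, at 0.55 to 0.68 with 1 array left out, and its adjusted p ran from 0.120, without CON5, to 0.991, with slide and sex as covariates. Scaling to a common median moved the median of all features from 0.05 to -0.13 and turned SLC10A1 to -0.18, SLCO2B1 to -0.13, ABCB4 to -0.21, ABCC2 to -0.14 and ABCA1 to -0.17. Relative to that median these 5 lay between -0.085 (ABCB4) and 0.0012 (SLCO2B1), and SLC22A7 was 0.50, against 0.55. Slide as a covariate, or slide 2 alone, turned SLCO1B1 to 0.27, ABCC2 to -0.12, SLC22A23 to 0.32 and SLCO2A1 to 0.46. A random slide block turned ABCC2 to -0.013, SLC22A23 to 0.064 and SLCO2A1 to 0.21. Slide and sex together turned SLCO1B1 to 0.15, ABCC2 to -0.034, SLC47A1 to 0.12, SLC22A23 to 0.35 and SLCO2A1 to 0.28. Other probes gave SLCO2B1 -0.048 and SLCO3A1 -0.18. With 1 array left out, SLC10A1 ran from -0.026 to 0.21, ABCB4 from -0.054 to 0.12, ABCC2 from -0.055 to 0.16, ABCA1 from -0.016 to 0.11, SLC10A3 from -0.13 to 0.044 and SLCO2A1 from -0.60 (without MO2, when no maternal obese array is detected) to 0.17. SLCO2A1 was detected on 4 arrays, and the other SLCO3A1 probe too, so their signs are not read. Features called by condition went from 0 to 1 with slide or with sex as covariate, and ran from 0 to 1 with 1 array left out (1 without CON5 or CON6). With slide as a covariate they ran from 0 to 4 (4 without CON6). Features called by slide went from 968 to 593 with detection on all 11 arrays, 382 in controls only and 127 with sex added, and ran from 48 (without CON6) to 1051, with 209 without CON5 and 538 without CON3. Transporters called by slide went from 1 to 0 with detection on all 11 arrays, where SLC22A23 is not tested, to 0 with sex added, and to 2 in controls only, where SLCO1B1 also passed. With 1 array left out they ran from 0 (without CON3, CON5 or CON6) to 2 (without MO2). Features called by sex went from 5 to 3 with quantile normalization alone, 2 with median scaling, 0 with detection on all 11 arrays and 2 with no filter, and ran from 3 to 5 with 1 array left out. Features called by the interaction ran from 0 to 15, with 15 without CON4 and 1 without MO4 or MO5. The cause of these moves was not tested. Genes detected on 4 to 8 arrays lie near background, which limits their differences.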
